A study of Rattus norvegicus with 2 samples.

Results

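Enzymes of fatty acid oxidation, carnitine handling and ketone body metabolism were described in the duodenum of an immobilized and a control rat. The members were the probe sets annotated to 32 listed genes. Of these genes, 29 had at least 1 probe set that carried their symbol alone, out of 4736 such genes on the array, and they were covered by 48 probe sets. Crat and Eci2 had none in the array annotation used here, and Acaa1a shared its only probe set with Acaa1b. The control animal was a male Wistar rat aged 15 weeks that spent 2 weeks in a metabolic cage, and the immobilized animal was a male Wistar rat of the same age that spent those 2 weeks in an immobilization cage. RNA of the duodenal mucosa of each rat, labelled as epithelial cells, went onto 1 Affymetrix rat U34A array, which carries short oligonucleotide probes. The labels describe 1 rat per array, and whether RNA of several animals was pooled is not given in the sources used here. With 1 array per group there is no replicate check, no p-value can be given, and a difference between the arrays cannot be told apart from a difference between any 2 rats.

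Fatty acids are broken down in mitochondria and peroxisomes by a repeating cycle of oxidation, hydration, oxidation and thiolysis. Long-chain acyl groups enter mitochondria as carnitine esters, made by the palmitoyltransferase Cpt1, carried by Slc25a20 and turned back to CoA esters by Cpt2. Double bonds of unsaturated fatty acids stop the cycle until isomerases and a reductase have moved or removed them, and the acetyl-CoA that the cycle gives can be made into ketone bodies. Enterocytes, which take up dietary fat, use part of it as fuel, although most is packed into lipoproteins.

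In these 2 arrays single members of several steps were higher in the immobilized rat, led by Decr1, which acts on double bonds, and the core mitochondrial cycle differed little. Decr1, the mitochondrial dienoyl-CoA reductase, had a signal of 564 in the control and 1619 in the immobilized rat. The peroxisome assembly ATPase Pex6, the carnitine transporter Slc22a5 and the isomerase Eci1 also passed 2-fold, all higher in the immobilized animal, and no member was 2-fold lower. Signals are in the deposited intensity units. Ratios, always immobilized over control, were taken after the immobilized array was multiplied by 1.016, and only for probe sets above a floor of 39.9 on both arrays. A gene with several probe sets is given by the one with the highest mean signal, and its other probe sets are given beside it.

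Of these 29 members, 24 exceeded the floor on both arrays, Acot2 on the immobilized array only, and Acox2, Acox3, Hadh and Acot1 on neither. At 2-fold, 4 of the 24 (16.7%) were higher, against 2.02% of the 2524 genes above the floor, and 0 were lower, against 0.674%. At 1.5-fold, 6 were higher and 1 was lower, against 8.36% and 4.87% of all genes. A log2 ratio above 0 was found for 16 of the 24 (66.7%) and for 49.4% of all genes. The median log2 ratio of the members was 0.10 (range -0.61 to 1.54), beside -0.01 over all genes. The list was chosen with earlier results of these data known, so these contrasts with all genes are descriptive only. Between probe sets that target 1 gene the log2 ratio had an SD of 0.31 (696 genes), called the technical SD below, an error within this pair of arrays that leaves out the spread between animals. The technical SD also takes in probe sets made from the same sequence, so it may be too small for probe sets of different sequences. On that scale 7 members lay more than 1 SD above 0, 2 lay more than 1 SD below, and 15 lay within it, as did 62% of all genes.

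**Figure D1:**
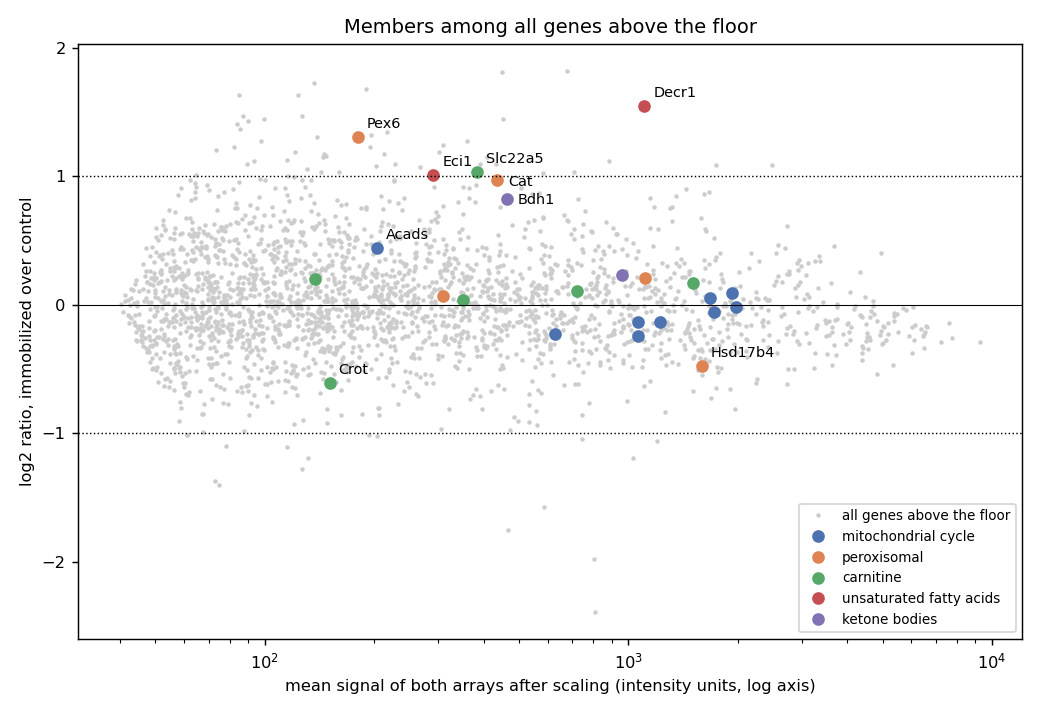
The log2 ratio (immobilized over control) of each gene above the floor on both arrays is plotted against its mean signal on a log axis, with the 24 members coloured by step and dotted lines at 2-fold. Decr1, Pex6, Slc22a5 and Eci1 lie at or above the upper line, and no member reaches the lower one.

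Ratios of dim probe sets are usually less sure, so the members were also read against genes of like signal. The SD of the log2 ratio over genes was 0.42 in each class of signal up to 1000 and 0.32 above it. Between mean signals of 100 and 300 lay 5 members, of which Pex6 and Eci1 were 2-fold higher, while 3.42% of 818 genes differed by 2-fold either way. Between 300 and 1000 lay 8 members, of which Slc22a5 alone was at 2-fold, against 3.05% of 591 genes. Above 1000 lay 11 members, of which Decr1 alone was at 2-fold, against 1.22% of 409 genes. No member had a mean signal between the floor and 100, a range in which 2.41% of 706 genes were at 2-fold.

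Sequences upstream of the members' start sites were read from RefSeq (rat build GRCr8), to show what the higher and lower members carry there. An entry was held for 26 of the 32 members, and Decr1, Pex6, Acadl, Acaa2, Ech1 and Cpt1b were not among them. The 250 bases before the start site are printed 5′ to 3′ on the gene's own strand for Eci1 and Slc22a5, the 2-fold higher members with an entry, for Crot, the lowest member, and for Hadha, whose window is shared in part with Hadhb. The windows are chr10:13961000-13961249 on the plus strand for Eci1, chr10:38536073-38536322 on the minus strand for Slc22a5, chr4:26052874-26053123 on the plus strand for Crot and chr6:31907551-31907800 on the plus strand for Hadha. Capitals mark, on either strand, the hexamer AGGTCA that many nuclear receptors bind, among them the peroxisome proliferator-activated receptors (PPARs) known to act on genes of fatty acid oxidation. They also mark the CCAAT box (CCAAT) and the GC box (GGGCGG).
Eci1: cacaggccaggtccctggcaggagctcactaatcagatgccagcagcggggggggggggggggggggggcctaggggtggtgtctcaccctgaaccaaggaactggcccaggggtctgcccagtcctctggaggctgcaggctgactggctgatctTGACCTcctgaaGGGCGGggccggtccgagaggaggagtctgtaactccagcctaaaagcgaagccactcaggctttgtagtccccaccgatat
Slc22a5: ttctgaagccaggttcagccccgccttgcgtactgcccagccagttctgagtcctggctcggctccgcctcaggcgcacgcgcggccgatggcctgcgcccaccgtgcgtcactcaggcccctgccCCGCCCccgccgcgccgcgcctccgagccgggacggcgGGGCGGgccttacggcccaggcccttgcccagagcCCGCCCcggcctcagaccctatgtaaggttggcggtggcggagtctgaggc
Crot: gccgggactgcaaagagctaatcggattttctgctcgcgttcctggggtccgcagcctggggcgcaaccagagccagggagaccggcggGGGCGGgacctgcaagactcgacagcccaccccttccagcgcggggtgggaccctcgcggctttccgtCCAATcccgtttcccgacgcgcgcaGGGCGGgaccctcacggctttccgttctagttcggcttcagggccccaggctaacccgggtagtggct
Hadha: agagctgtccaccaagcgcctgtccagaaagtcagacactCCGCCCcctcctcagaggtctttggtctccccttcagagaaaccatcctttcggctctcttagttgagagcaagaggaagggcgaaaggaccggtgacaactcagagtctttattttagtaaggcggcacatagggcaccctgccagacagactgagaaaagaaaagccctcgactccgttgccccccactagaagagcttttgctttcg

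The Eci1 window held the hexamer (as TGACCT, 94 to 89 bases before the start) and a GC box 82 to 77 bases before it. Slc22a5 had 3 GC boxes and no hexamer, and Crot had 2 GC boxes and 1 CCAAT box. Hadha and Hadhb, which encode the subunits of 1 enzyme, are neighbours on opposite strands, and their windows overlapped by 200 bases. The hexamer was found in the windows of 5 of the 26 members (19.2%; Acadvl, Cat, Echs1, Eci1 and Hsd17b4) and in 13.7% of all 27457 windows. As a direct repeat with 1 base between, AGGTCANAGGTCA, which contains the hexamer and is the form PPARs are known to bind, it was in 0 member windows and in 15 of all windows. A form this rare (0.0546% of all windows) would hardly be met in 26 windows, so the 0 says nothing about the members. Only exact matches were counted. GC boxes were in 17 of the 26 (65.4%, against 32.4%), CCAAT boxes in 10 (38.5%, against 34.3%) and TATAAA in 1 (3.85%, against 13.1%). The only GC box of Hadha is the same site as the Hadhb box 96 to 91 bases before the Hadhb start, so that site counts for both members. The median GC content was 59.4% in the members' windows and 52% in all windows. Such matches describe letters in a window only, and a motif outside it would not be seen.

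The step for unsaturated fatty acids, measured by 2 genes, had the highest median, although Pex6 and Slc22a5 of other steps had higher ratios than Eci1. Decr1 removes a double bond from dienoyl-CoA, a step needed for fatty acids such as linoleate. Its signal of 564 in the control and 1619 in the immobilized rat gave a 2.92-fold higher value (log2 ratio 1.54), rank 7 from the top of 2524 genes. The other Decr1 probe set, made from the same source sequence and so no independent design, read 210 and 717 (3.47-fold higher, log2 ratio 1.79). Both probe sets were thus high on the immobilized array. Decr2, the peroxisomal counterpart of Decr1, is not a member and was singled out after its values were seen. It read 375 on each array, with log2 ratios of 0.02 and 0.46 at its 2 probe sets.

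Eci1, which moves double bonds in mitochondria so that the hydratase can act, read 193 in the control and 382 in the immobilized rat. It was 2.01-fold higher (log2 ratio 1.01), just past the 2-fold mark, which it reached in 3 of 8 settings. A probe set from another sequence read 178 and 247, with a log2 ratio of 0.49. A further 2 Eci1 probe sets were below the floor on both arrays (3.8 and 2.4, and 29.0 and 18.5). The dimmer of these came from the same sequence as the probe set that stands for Eci1. The direction was thus the same at both measurable probe sets, while the size differed. Ech1, a dienoyl-CoA isomerase with mitochondrial and peroxisomal forms, read 1030 and 1169 (log2 ratio 0.21), which is within the technical SD.

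The core mitochondrial enzymes had nearly the same signals in both rats. Of 9 members above the floor, 3 were higher and 6 lower, none by 1.5-fold, and their median log2 ratio was -0.05. Among the acyl-CoA dehydrogenases, which start each round for chains of different length, Acadm (medium chain) read 1860 and 1956 (log2 ratio 0.10). Acadl (long chain) read 1641 and 1678 (0.05). Acadvl (very long chain) read 678 and 570 (-0.23). Acads (short chain) read 172 and 231, and was the member of this step farthest from 0, 1.36-fold higher with a log2 ratio of 0.44. The dehydrogenases thus lay on both sides of 0, in no order of chain length. A further Acadl probe set was below the floor on both arrays (7.3 and 5.7).

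The measurable enzymes after the first oxidation lay within the technical SD of 0 at the probe sets that stand for them. The hydratase Echs1 read 1113 and 1001 (log2 ratio -0.13), and the thiolase Acaa2, which releases acetyl-CoA, read 1989 and 1930 (-0.02). Hadha, the alpha subunit of the trifunctional protein that handles long chains, read 1749 and 1657 (-0.05). Its partner subunit Hadhb read 1277 and 1146 (-0.13), so that both subunits of the complex lay within the technical SD and on the same side of 0. The other Hadha probe sets read 1580 and 1542 (-0.01) and 465 and 319 (-0.52), the last from another sequence. Etfa, a subunit of the flavoprotein that takes electrons from the dehydrogenases, read 1150 and 958 at 1 probe set (-0.24) and 1102 and 980 at the other (-0.15), both from 1 sequence. Hadh, the dehydrogenase for shorter chains, was below the floor on both arrays (7.9 and 13.6), so no ratio is given.

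**Figure D2:**
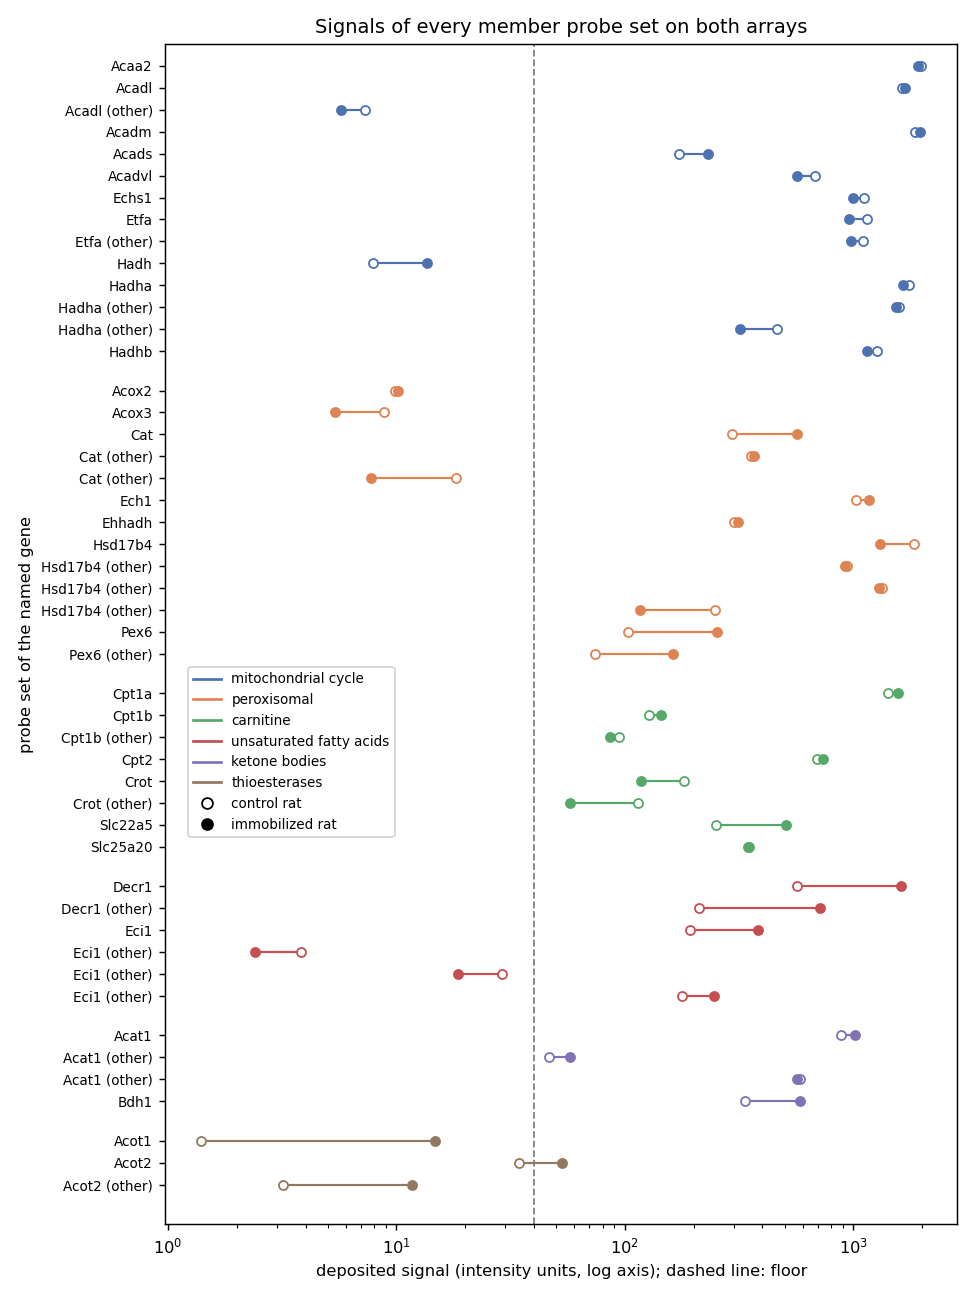
Deposited signals of all 48 member probe sets are drawn on a log axis, open circles for the control rat and filled circles for the immobilized rat, grouped by step, with the floor of 39.9 as a dashed line and further probe sets of a gene marked (other). The circles of Acaa2, Acadl and Acadm nearly touch above the floor, whereas those of Decr1, Pex6, Slc22a5 and Bdh1 are well apart.

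Carnitine genes divided into a transporter that was higher, an enzyme that was lower and a long-chain shuttle that hardly differed. Slc22a5, also called OCTN2, brings carnitine into the cell with sodium. It read 251 and 507, 2.05-fold higher (log2 ratio 1.03), at its only probe set. Crot, a peroxisomal enzyme that makes medium-chain carnitine esters, read 182 and 117, 1.52-fold lower (-0.61). The other Crot probe set, from a different sequence, read 114 and 57.7 (-0.96), so both were low on the immobilized array.

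Each step of the shuttle lay within the technical SD of 0. Cpt1a, the liver form of the palmitoyltransferase and the point at which malonyl-CoA holds back the pathway, read 1419 and 1570 (log2 ratio 0.17). The muscle form Cpt1b read 128 and 145 (0.20), and 94.6 and 85.9 (-0.12) at a probe set of the same sequence, so its direction was not settled. Cpt2, which re-forms acyl-CoA inside the mitochondrion, read 696 and 739 (0.11). The carrier Slc25a20 read 346 and 349 (0.04). The 6 carnitine genes above the floor had a median of 0.14 and ranged from -0.61 to 1.03.

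Peroxisomal genes were spread widely, from -0.47 to 1.31 on the log2 scale, with a median of 0.21 over 5 genes above the floor. Pex6 is an ATPase that recycles the receptor for peroxisomal protein import and is no enzyme of oxidation itself. It read 103 and 252, 2.48-fold higher (log2 ratio 1.31), at rank 17 from the top of all genes. A probe set of the same sequence read 74.0 and 163 (1.16). Among the other peroxins of the pathway list, named after their values were seen, Pex14 (146 and 204) had a log2 ratio of 0.51, Pex5 (278 and 309) of 0.17, Pex11a (95.8 and 76.9) of -0.29 and Pex2 (85.0 and 61.2) of -0.45. Pex2 also had a probe set at 0.10. The peroxins thus lay on both sides of 0.

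Catalase, Cat, which breaks down the hydrogen peroxide that peroxisomal oxidases form, gave different answers at its probe sets. It read 294 and 567 at 1 probe set, 1.96-fold higher (log2 ratio 0.97) and just short of 2-fold, and 356 and 368 (0.07) at another from a different sequence. A further Cat probe set, from the same sequence as the 1.96-fold higher one, was below the floor on both arrays (18.2 and 7.7). The bifunctional enzymes carry out the middle steps of the peroxisomal cycle. Ehhadh, which serves straight chains, read 301 and 312 (0.07). Hsd17b4, which serves branched chains and bile acid precursors, read 1852 and 1313 (-0.47, 1.39-fold lower), with its other probe sets at 937 and 919 (-0.0045), 1330 and 1293 (-0.02) and 249 and 117 (-1.07).

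The spread over the 4 Hsd17b4 probe sets, 1.06 on the log2 scale, was larger than the ratio of the gene itself. The branched-chain oxidases Acox2 (9.9 and 10.2) and Acox3 (8.8 and 5.4) were below the floor on both arrays. The peroxisomal thiolase probe set annotated to both Acaa1a and Acaa1b read 528 and 469 (-0.15). It was left out of all counts because the genes share it. Acaa1b, which is not a member, read 665 and 630 (-0.06) at a probe set of its own.

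Of the ketone body enzymes, Bdh1 was higher and the direction of Acat1 was not settled. Bdh1, which interconverts acetoacetate and hydroxybutyrate, read 335 and 583, 1.77-fold higher (log2 ratio 0.82), at its only probe set. Acat1, the mitochondrial acetoacetyl-CoA thiolase, read 882 and 1017 (0.23), 46.4 and 57.4 (0.33) and 587 and 568 (-0.02, from another sequence), so that it lay near or within the technical SD. The thioesterases, which split acyl-CoA, were dim. Acot2, the mitochondrial form, was above the floor on the immobilized array only, with signals of 34.3 and 53.2, and was at least 1.35-fold higher there. A second Acot2 probe set was below the floor on both arrays (3.2 and 11.7). Acot1, the cytosolic form, was below the floor on both arrays (1.4 and 14.8), and the probe set that both genes share read 67.5 and 87.5 (0.40).

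**Figure D3:**
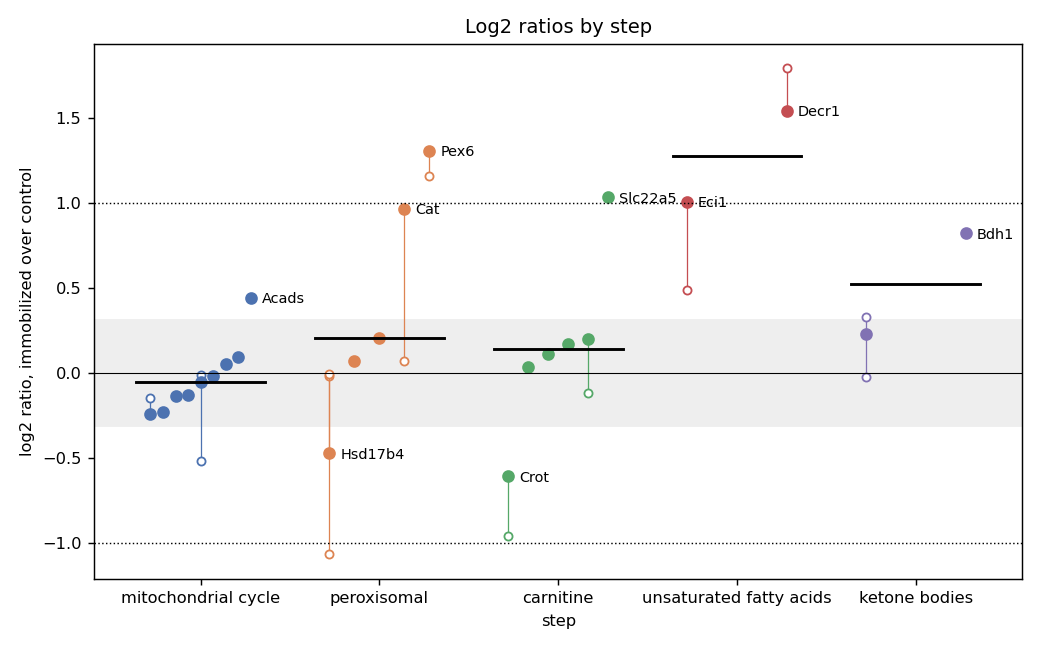
The log2 ratios (immobilized over control) of the members are shown by step, with filled points for the probe set that stands for the gene, open points for its other probe sets above the floor, thick lines for step medians, dotted lines at 2-fold and a grey band for 1 technical SD of 0.31 either way. The mitochondrial median lies near 0 (-0.05), the unsaturated fatty acid enzymes at 1.28, and open points of Cat and Hsd17b4 lie far from their filled ones.

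Set side by side, the step medians were -0.05 for the mitochondrial cycle (9 genes), 0.14 for carnitine (6), 0.21 for peroxisomal genes (5), 0.53 for ketone bodies (2) and 1.28 for unsaturated fatty acids (2). With 2 genes a median is only the midpoint of their values. The ranges of the mitochondrial cycle (-0.24 to 0.44) and of the unsaturated fatty acid enzymes (1.01 to 1.54) did not overlap, while those of the peroxisomal and carnitine genes covered the mitochondrial range. This holds only with the dienoyl-CoA isomerase Ech1 (0.21) counted as peroxisomal. Counted with the unsaturated fatty acid enzymes, Ech1 makes their range overlap the mitochondrial one. At the second Eci1 probe set (0.49) the gap to Acads (0.44) was smaller than the technical SD. No test of the difference between steps was made, and the steps were chosen with earlier results of these data known.

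Over the 38 member probe sets above the floor, 6 were 2-fold higher (both of Decr1, both of Pex6, and 1 each of Eci1 and Slc22a5) and 1 was 2-fold lower (Hsd17b4). The shares over all 3401 such probe sets were 1.88% and 0.794%. Of 10 members with several probe sets above the floor, 2 (Acat1 and Cpt1b) had probe sets on opposite sides of 0. The 4 members whose probe sets above the floor all came from 1 sequence (Decr1, Pex6, Etfa and Cpt1b) differed among them by 0.09 to 0.32. The 6 with several sequences differed by 0.35 to 1.06, and some of these had more probe sets, which can widen a range. Among them, Hsd17b4 had probe sets of 1 shared sequence at -0.47 and -0.0045, so a shared sequence did not always bring like ratios.

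Other genes of fatty acid handling, from a list that leaves out the members, did not lean to the higher side. Of 66 listed, 43 had a probe set of their own and 34 exceeded the floor on both arrays, with 14 higher, 20 lower, 1 at 2-fold each way and a median of -0.07. Over all genes 49.4% were higher, and 2.02% and 0.674% were 2-fold higher and lower. Slc27a2, a transporter and acyl-CoA synthetase for very long chains, read 184 and 413 (2.28-fold higher). The nuclear receptor partner Rxra read 44.7 and 83.1 (log2 ratio 0.92), near the floor in the control, and with Pex14 and the thioesterase Acot7 (240 and 322; 0.45, but down to -0.37 at another of its 3 probe sets) it completed the highest 4. The fatty acid carrier Cd36 read 718 and 209 (3.37-fold lower). It was followed from below by the monooxygenase Cyp4b1 (710 and 394; -0.82), by Ppard (351 and 226; -0.61, but up to 0.79 over its 3 probe sets) and by the acyl-CoA synthetase Acsl1 (257 and 172; -0.56, and 0.07 at another probe set).

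Ppara, Pdk4, Fabp1 and Fabp2 had log2 ratios below 0. Ppara, the receptor that induces many of these enzymes in liver, was close to the floor (54.8 and 45.3; log2 ratio -0.25). Pdk4, a mitochondrial kinase known as its target, read 105 and 82.4 (-0.33). The fatty acid binding proteins Fabp1 (7995 and 7115; -0.14) and Fabp2 (5297 and 4515; -0.21), which mark enterocytes, were slightly lower.

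Marker genes of several cell types differed between these samples, and their part in the members' values was not tested. Fewer cells of a type and less RNA per cell cannot be told apart in such bulk tissue. Of 8 villus enterocyte markers measured, all were well above the floor. Lower were 7, among them Alpi, Apoa4, Fabp2 and, close to 0, Anpep (-0.01), while Lct was higher (2185 and 2850, log2 ratio 0.41). The median log2 ratio of the 8 was -0.25, and their summed signal was 47152 in the control and 40525 in the immobilized rat. The technical SD describes single probe sets and gives no error for such a median, and these bright markers were not compared with other genes of like signal. Of 6 markers of dividing cells, 5 exceeded the floor in both rats and were higher (median 0.52; summed signal of the 6, 990 and 1353). All 11 exocrine pancreas markers were higher, with a median of 0.87 and a summed signal of 6543 and 12457. Several defining markers of fat, liver and muscle were near background. Of 5 adipocyte markers, Fabp4, Lpl, Plin1 and Cfd were below the floor on both arrays and Lep was not (summed signal 862 and 721). In the hepatocyte list, Alb and Fgb were below the floor on both arrays, and Apob, which enterocytes also make, carried most of the summed signal of 3219 and 3316. Of 9 muscle markers, Des, Ckm, Myl1 and Tnnt3 were below the floor on both arrays. The 4 above it on both were Acta2 (1.68), Myh11 (0.59), Tagln (-0.02) and Acta1 (-0.19), with a median of 0.29 (summed signal of the 9, 479 and 710). All 6 goblet, Paneth and Brunner gland markers were above the floor, with Pla2g2a (1.72) and Lyz2 (1.03) higher, Reg3b (-2.39) and Reg3g (-1.98) lower and a median of -0.23 (summed signal 12967 and 9946). Of 4 enteroendocrine markers, 3 were lower, with a median of -0.34 (summed signal 2186 and 1947). Of 4 leukocyte markers, Cd74 (0.18) and Cd3g (0.62) were above the floor on both arrays. Ptprc (50.1 and 37.8) was above it in the control only, and Cd8a (16.4 and 8.3) on neither array. Cd74 (2776 and 3096) carried most of the summed signal of 2884 and 3205. The red cell marker Hbb was at -0.51 (193 and 134).

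**Figure D4:**
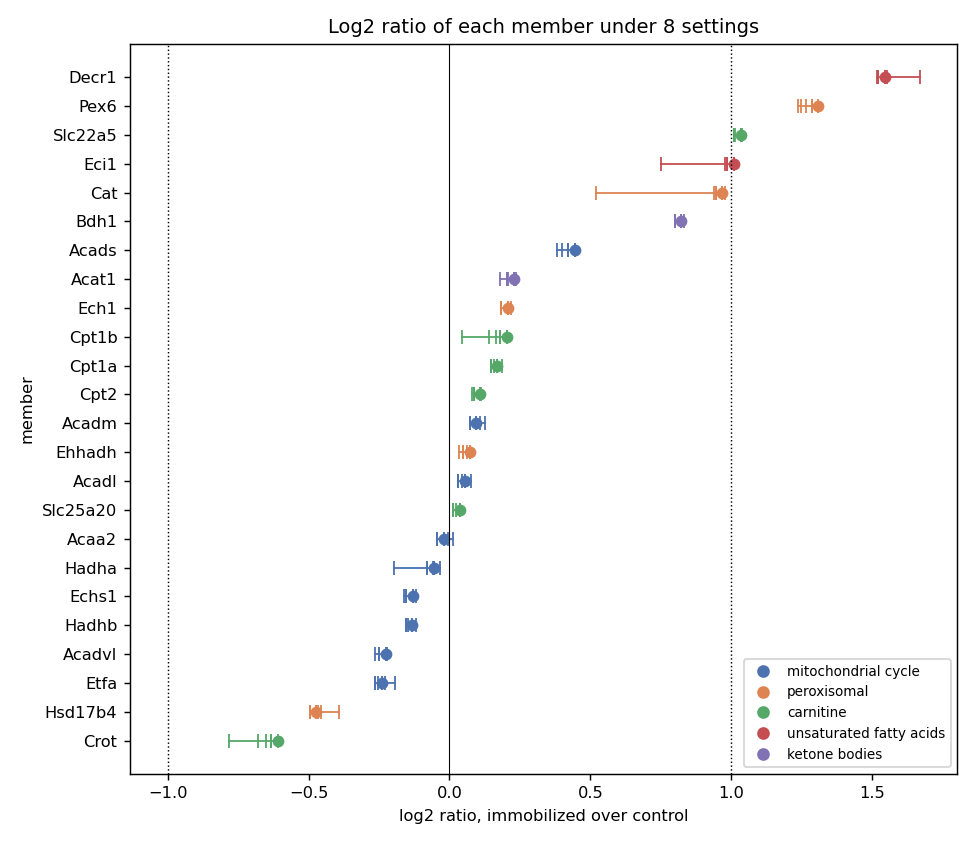
Each row is a member above the floor, with a filled point for the log2 ratio (immobilized over control) as reported, ticks for 7 other ways of scaling, setting the floor or combining probe sets, and dotted lines at 2-fold. Decr1, Slc22a5 and Pex6 stay past the upper line wherever they have a value, Eci1 runs from 0.75 to 1.01, and Cat has the longest bar.

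Across those 8 settings Decr1, Pex6 and Slc22a5 stayed highest, in that order, wherever they had a ratio. With probe sets averaged, Eci1 (0.75) and Cat (0.52) fell below Bdh1 (0.82). Decr1 ranged from 1.52 to 1.67 and Slc22a5 from 1.01 to 1.04, past 2-fold in all 8. Slc22a5 has a single probe set, so the floor settings and averaging could not change its ratio. Pex6 ranged from 1.24 to 1.31 in the 7 settings that gave it a ratio. Eci1 was at 2-fold in 3 of 8 (0.75 to 1.01), Cat ranged from 0.52 to 0.98, and Crot from -0.78 to -0.61. Acaa2 alone changed sign, between -0.04 and 0.01.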

How the data were processed

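Duodenal mucosa RNA of 1 control and 1 immobilized rat was measured on rat U34A arrays. The deposited signals are linear intensity values that the authors made, with 1 value for each probe set. Per the labels and the series' design text, the manufacturer's software, version 4.0, with routines for filtering and normalization, was used, and the submitters' processing notes name MAS5, so the signal algorithm is not settled. Detection calls were not used here.

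The table held 8799 probe sets: 59 array controls, 7006 with 1 gene symbol, 308 with several and 1426 with none. For 6985 probe sets the gene ID gave the current symbol. Probe sets with several symbols entered no gene value. Scaling the immobilized array by 1.016 brought the median log2 ratio of measurable probe sets to 0, and the floor was the 50th percentile of all signals, 39.9. The sign of a small ratio therefore depends on the scaling. Arrays had mean signals of 312 and 301. With 1 array per group nothing was tested, and the number of arrays limits the precision.

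The members, steps and lists were chosen with earlier results of these data known. The named genes were every member and, from the list of other pathway genes, the 4 highest, the 4 lowest, all at 2-fold, and Ppara, Pdk4, Fabp1 and Fabp2 whatever their values, with some listed genes not reported here. Others are said to be named after their values were seen. Alternatives were no scaling, scaling on the 2% trimmed mean, loess with a span of 0.3, quantile normalization, a floor at the 30th or the 70th percentile, and averaging of probe sets. The counts were also taken at 1.5-fold and 3-fold and over all probe sets, and the list mean and another step for Ech1 were tried. The ratios and counts were tested on simulated data. Python 3.11.15, numpy 2.4.6, pandas 2.3.3, statsmodels 0.14.6 and matplotlib 3.10.9 were used.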

Additional observations from a re-analysis of the deposited data

How the results depend on the processing

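The count of 4 members at least 2-fold higher was 3 or 4 under each of the 7 alternative settings. It rose to 6 at 1.5-fold and fell to 0 at 3-fold. Over all 38 member probe sets above the floor, 6 probe sets were 2-fold higher, and these belonged to the same 4 members. The count of members 2-fold lower was 0 under the same 7 settings and 1 at 1.5-fold (Crot). Over all member probe sets, 1 probe set was 2-fold lower (Hsd17b4). The median log2 ratio of the members was 0.10, and the mean was 0.27. With Ech1 placed among the unsaturated fatty acid enzymes, the peroxisomal median was 0.52 and the unsaturated median 1.01. Of 166 values of single members under the alternatives, 165 moved by less than the technical SD of 0.31, and Cat moved from 0.97 to 0.52 with probe sets averaged. Most of these values could hardly move. A changed floor leaves a ratio as it is, and a single scaling factor shifts all members alike. Averaging cannot change a member with a single measurable probe set. The count of 165 is therefore no check of the single ratios. Over all genes, 51 were 2-fold higher and 17 lower; with the floor at the 30th percentile these were 106 and 71, and at the 70th percentile 22 and 9, when Pex6 and Crot had no ratio. No paired analysis was possible because each group has 1 array. Signal over background limits Acox2, Acox3, Hadh, Acot1 and Acot2, for which no ratio could be given.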
